A study of Homo sapiens with 2 samples.

Results

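The genes examined here encode the proteins of the mitochondrial ribosome whose symbols are MRPL or MRPS followed by a number. They were taken by symbol from probe sets annotated to 1 gene, with pseudogenes left out. The rule found 75 genes, carried by 140 probe sets, among 19775 genes with a probe set of their own. RefSeq lists 77 protein-coding genes with such symbols. The remaining 2, MRPL53 and MRPS24, lie only in probe sets that also name a second gene. The cells were DLD-1, an established line from a human colorectal cancer, carrying a stable tet-off transgene for wild-type p53, which both groups share. The p53 on group was RNA from cells kept without tetracycline for 9 h, and the p53 off group was RNA from cells kept with tetracycline. Each group is 1 Affymetrix array of 1 RNA, so that no replicate error, test or p-value exists, and every ratio describes these 2 arrays.

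The mitochondrial ribosome translates the few proteins that mitochondrial DNA encodes, all of them parts of the respiratory chain and ATP synthase. Its RNAs come from mitochondrial DNA, while all of its proteins are encoded in the nucleus, made in the cytosol and imported. The small subunit binds the messenger RNA and decodes it, and the large subunit forms peptide bonds and releases the chain at the inner membrane. Some of its proteins have bacterial homologues and others occur only in mitochondria. By the structure of the particle 50 of the 75 genes belong to the large subunit, including MRPS30 and MRPS18A despite their names, and 25 to the small subunit.

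Values are linear signal intensities, and the probe set that was brightest on average stands for its gene. Ratios are p53 on over p53 off. Signals under 112.4, the median of all signals that were not controls, were set to that floor. No member's chosen probe set was under it on either array. Across members the signals ran from 243.7 to 18173 with a median of 2123 on the p53 on array, and from 825.2 to 19893 with a median of 3338 on the p53 off array.

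Mitochondrial ribosomal protein genes were mostly lower with p53 on. The signal was lower in 65 of 75 genes and higher in 10. At least 1.5-fold lower were 41 genes (54.7%), against 25.9% of all 13915 measured genes, and 2 were at least 1.5-fold higher, against 25.9% of all measured genes. At least 2-fold lower were 22 members, against 13.5% of all measured genes, and none was at least 2-fold higher, against 15.3%. The median log2 ratio was -0.63 over the members and 0.0035 over all measured genes. The plot of ratios by subunit shows a continuous spread from -2.54 to 0.88 with no gap between lower and near-equal genes.

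**Figure D1:**
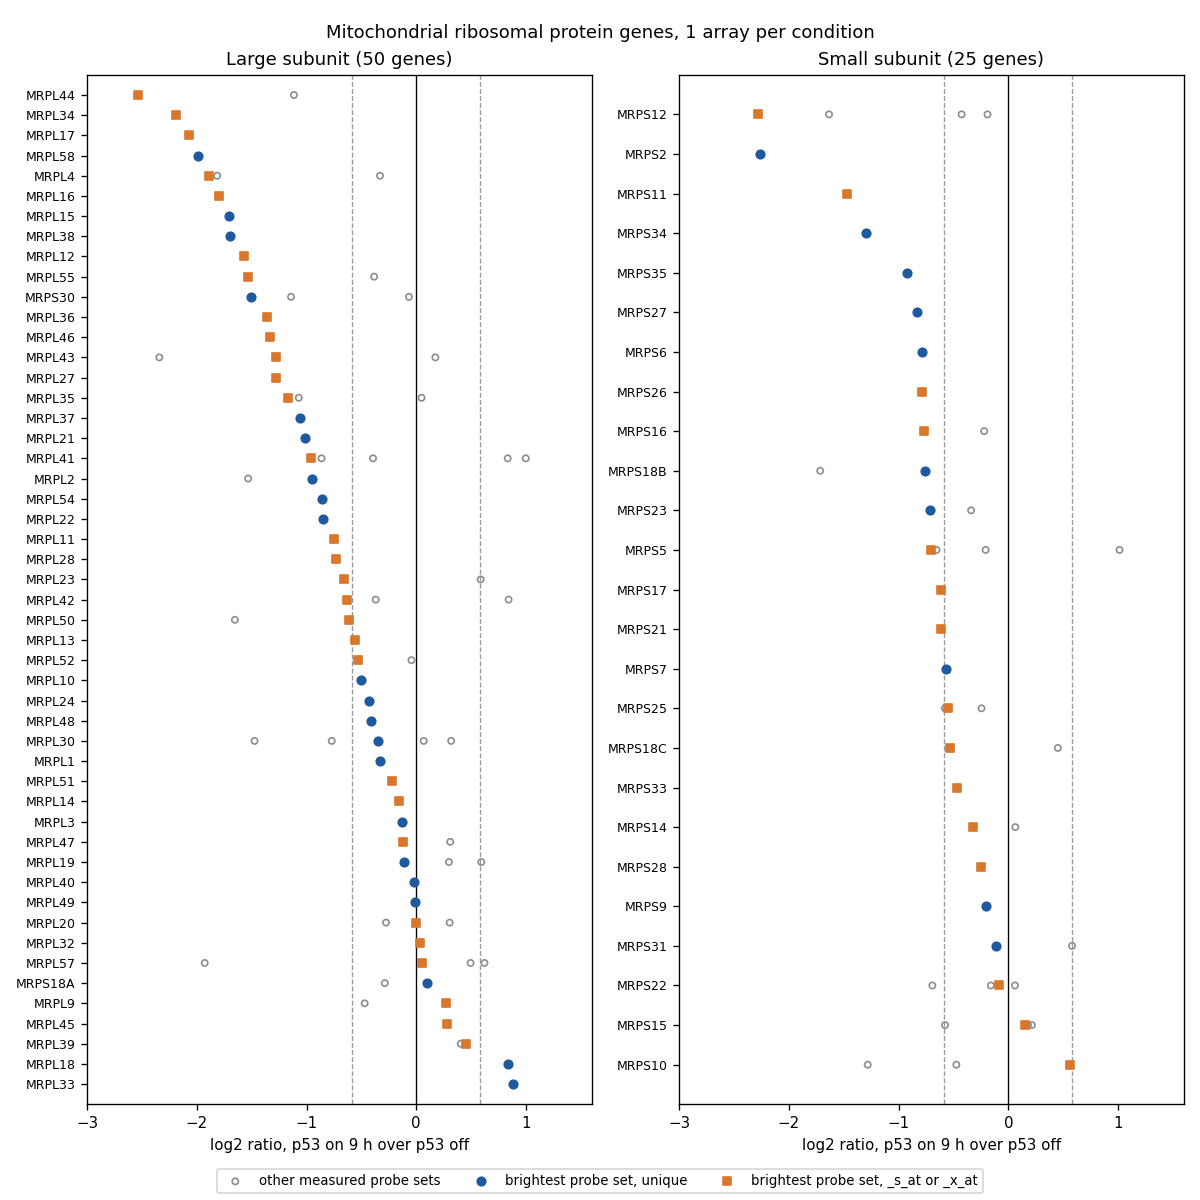
Log2 ratio of p53 on 9 h over p53 off (x axis) for each gene of the large (left) and small (right) subunit, 1 row per gene. Filled marks are the brightest probe set, open circles the other measured probe sets of the gene, and dashed lines mark 1.5-fold; filled marks lie left of 0 in 65 of 75 rows, while open circles of 1 gene often lie on both sides.

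The control probe sets also moved with the conditions. For beta-actin the 3' over 5' signal ratio was 7.29 on the p53 on array and 1.37 on the p53 off array, and the spike-in hybridization controls, of bacterial and phage sequence, were a median of 1.89 times as bright on the p53 on array. Their part in the ratios was not tested. Scaling to these controls would put the median measured gene at -0.80 and the median mitochondrial ribosomal protein gene at -1.55, so directions here are relative to the median gene. Of 10 epithelial markers 8 were measured, with log2 ratios from -0.58 for CDX2 to 2.61 for LGALS4 and 4 of them at least 1.5-fold higher; EPCAM had 35534 with p53 on and 20250.4 with p53 off, and KRT20 and CDX1 were under the floor on both arrays. Among markers of leukocytes, fibroblasts and endothelium, PTPRC, CD3E, CD14, COL1A1 and COL3A1 were under the floor on both arrays. The 4 measured ones were dim on both arrays: PECAM1 had 224 with p53 on and 121 with p53 off, and COL1A2 had 108 with p53 on and 141 with p53 off. CDH5 and VWF had 179 and 126 with p53 on, and 25.1 and 33.4 with p53 off, under the floor.

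The lowest ratio among the members was that of MRPL44, a large-subunit protein with a ribonuclease III-like fold in which inherited variants cause cardiomyopathy. Its brightest probe set had 243.7 on the p53 on array and 1413 on the p53 off array, 5.80-fold lower, and its other probe set was at least 2.17-fold lower, its p53 on signal being under the floor. MRPS12, the homologue of the bacterial decoding-centre protein S12, had 920.4 with p53 on and 4479 with p53 off, 4.87-fold lower. All 4 of its measured probe sets were lower, at -2.28, -1.63, -0.43 and, as a bound with p53 on under the floor, -0.19. The highest ratios were those of MRPL33 and MRPL18. MRPL33, the homologue of a small bacterial large-subunit protein, had 8643 with p53 on and 4699.5 with p53 off, 1.84-fold higher. MRPL18, whose bacterial homologue binds the small ribosomal RNA of the large subunit and which is known to yield a cytosolic form in heat-shocked human cells, had 9281 with p53 on and 5202 with p53 off, 1.78-fold higher. Each of these 2 genes has a single probe set, and scaled to the spike-ins their log2 ratios are -0.040 and -0.084, and none of the 10 members with a higher signal stays above 0.

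The starts of these 4 genes are shown because they stand at the ends of the range among members whose measured probe sets share a sign. Each sequence is from RefSeq (GRCh38.p14), 5′ to 3′ on the gene's strand, with 250 bases before and 50 from the start of the gene, and capitals mark the motifs named below. The windows lie at chr2:223957213-223957512 (plus strand) for MRPL44, chr19:38930694-38930993 (plus strand) for MRPS12, chr2:27771469-27771768 (plus strand) for MRPL33 and chr6:159789562-159789861 (plus strand) for MRPL18.
MRPL44: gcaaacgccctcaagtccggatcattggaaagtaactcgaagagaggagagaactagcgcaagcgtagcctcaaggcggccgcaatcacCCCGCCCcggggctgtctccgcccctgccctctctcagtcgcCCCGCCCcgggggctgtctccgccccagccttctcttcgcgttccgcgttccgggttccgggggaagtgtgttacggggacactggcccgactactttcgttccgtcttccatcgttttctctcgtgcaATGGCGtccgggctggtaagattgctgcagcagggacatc
MRPS12: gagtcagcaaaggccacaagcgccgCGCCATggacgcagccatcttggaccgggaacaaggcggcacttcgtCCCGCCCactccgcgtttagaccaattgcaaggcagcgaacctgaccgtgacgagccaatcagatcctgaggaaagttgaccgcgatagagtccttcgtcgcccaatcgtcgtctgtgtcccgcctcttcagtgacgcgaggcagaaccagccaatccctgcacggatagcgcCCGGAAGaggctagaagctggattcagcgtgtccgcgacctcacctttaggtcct
MRPL33: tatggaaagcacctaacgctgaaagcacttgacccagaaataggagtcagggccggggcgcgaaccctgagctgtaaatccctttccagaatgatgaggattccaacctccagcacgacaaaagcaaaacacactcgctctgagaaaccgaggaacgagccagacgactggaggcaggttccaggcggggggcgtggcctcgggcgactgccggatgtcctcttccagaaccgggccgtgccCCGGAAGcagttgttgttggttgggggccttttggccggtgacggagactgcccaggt
MRPL18: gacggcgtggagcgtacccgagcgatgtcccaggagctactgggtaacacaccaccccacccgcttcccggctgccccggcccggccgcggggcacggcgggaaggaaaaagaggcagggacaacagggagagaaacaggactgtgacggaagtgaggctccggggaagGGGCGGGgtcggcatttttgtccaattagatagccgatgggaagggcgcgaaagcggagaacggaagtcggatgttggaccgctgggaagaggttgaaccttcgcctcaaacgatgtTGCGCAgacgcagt

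These windows were searched on both strands for motifs of factors known to act at genes for mitochondrial proteins: the core of the NRF1 site (TGCGCA), the ETS site bound by GABPA (CCGGAAG), the YY1 core (ATGGCG, letters that can also hold a start codon) and the E-box bound by MYC (CACGTG). The SP1 site (GGGCGGG) and, by name alone, the p53 half-site were searched as well, and no motif contains another. MRPS12 and MRPL33, at opposite ends of the range, both hold an ETS motif near the start. Its first base is at position -5 in MRPS12, where the motif runs across the start, and at position -8 in MRPL33. MRPS12 also holds a YY1 motif, from position -225, and an SP1 motif, from position -178. MRPL44 holds 2 SP1 motifs and a YY1 motif, and MRPL18 an SP1 and an NRF1 motif. None of the 4 windows holds a p53 half-site.

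Of the 75 members 67 have a window in the RefSeq table. The ETS motif was in 41.8% of these windows, against 14.2% of all 15843 protein-coding windows, and the YY1 core in 47.8%, against 14.3%. The NRF1 core was in 20.9%, against 10.8%, while the SP1 motif (49.3% and 44.4%), the E-box (8.96% and 8.88%) and the p53 half-site (5.97% and 5.93%) were at shares near those of all windows. Among the 36 members with a window that were at least 1.5-fold lower, 36.1% held the ETS motif and 52.8% the YY1 core, and among the other 31 members 48.4% and 41.9% did. A match describes letters and is not a bound site.

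In the large subunit 27 of 50 genes were at least 1.5-fold lower and 2 higher, with a median log2 ratio of -0.65. For the counts by subunit and class, 25.9% of all measured genes passed the 1.5-fold limit in each direction. In the small subunit 14 of 25 were lower and none higher, with a median of -0.61. The 45 genes with bacterial homologues had a median of -0.61, with 24 at least 1.5-fold lower, and the 30 mitochondrion-specific genes a median of -0.67, with 17 lower. MRPS18A and MRPS18B were counted among the 30, although they are paralogues of MRPS18C, which was counted among the 45. With the brightest probe set per gene, the medians of the subunits and of the classes were thus close to each other and to that of all members. At least 2-fold lower were 18 of 50 large-subunit genes (36%) and 4 of 25 small-subunit genes (16%), against 13.5% of all measured genes. Without probe sets marked _s_at or _x_at, which left 43 members, the medians were -0.33 for the large and -0.64 for the small subunit. They were then -0.30 for genes with bacterial homologues and -0.76 for mitochondrion-specific genes. These differences were not tested.

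**Figure D2:**
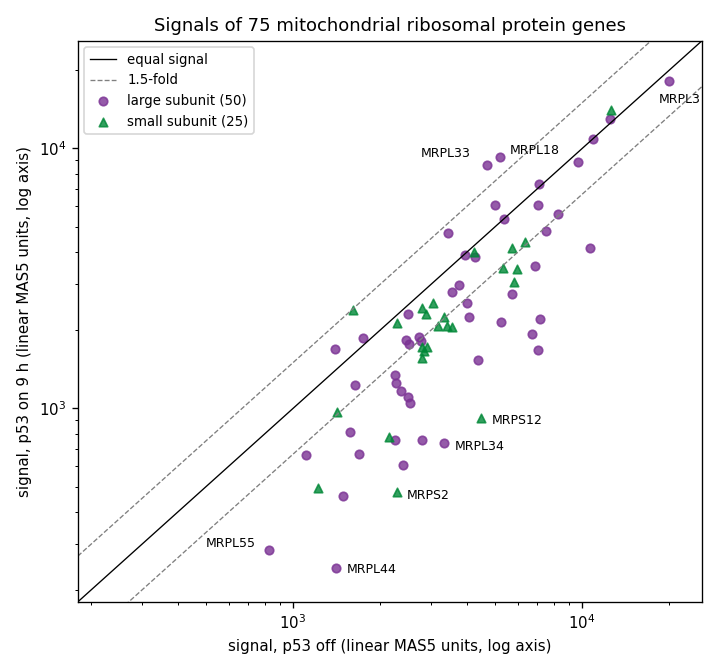
Linear MAS5 signal on the p53 on array (y axis) against the p53 off array (x axis), both on log axes, 1 mark per gene. The solid line is equal signal and the dashed lines 1.5-fold; most marks lie under the solid line, and the brightest genes, such as MRPL3, lie close to it.

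Proteins that shape the core of the large subunit differed among themselves. MRPL3 and MRPL4 are homologues of bacterial proteins that bind the ribosomal RNA early in assembly. MRPL3 was the brightest member, at 18173 with p53 on and 19893 with p53 off, a log2 ratio of -0.13. MRPL4 had 757 with p53 on and 2803 with p53 off on its brightest probe set, 3.70-fold lower, and its other probe sets gave -1.81 and -0.33. MRPL2, which reaches the peptidyl transferase centre, had 813 with p53 on and 1574 with p53 off, and both of its probe sets were lower, at -0.95 and -1.53. MRPL20 was nearly equal on both arrays at 10874 with p53 on and 10881 with p53 off, and MRPL13 had a log2 ratio of -0.56. MRPL16, whose bacterial homologue helps to place transfer RNA, was 3.47-fold lower, and MRPL15 3.25-fold.

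The stalk, which recruits translation factors, is built by MRPL10, MRPL11 and MRPL12, and all 3 were lower. MRPL12, which is also known to bind the mitochondrial RNA polymerase, had 759 with p53 on and 2253 with p53 off, 2.97-fold lower. MRPL11 was 1.68-fold lower, at 1343 with p53 on and 2252 with p53 off. MRPL10 was lower by less than 1.5-fold, at 1775 with p53 on and 2519.7 with p53 off.

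The central protuberance, which contacts the small subunit and transfer RNA, spanned a wide range. Of its 8 genes, 5 were at least 2-fold lower, MRPL58, MRPL38, MRPL55, MRPL46 and MRPL27. That share was 29.3% over all members and 13.5% over all measured genes. MRPL18 was higher, and MRPL40 and MRPL48 had log2 ratios of -0.017 and -0.41. MRPL58, which is related to release factors and can free stalled chains, had 605 with p53 on and 2407 with p53 off, 3.98-fold lower on its single probe set. MRPL38 was 3.25-fold lower at 458 with p53 on and 1489.6 with p53 off. MRPL55 had the lowest mean signal of any member, at 284 with p53 on and 825 with p53 off, and was 2.90-fold lower. Its second probe set gave a log2 ratio of -0.38, a bound with p53 on under the floor.

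Around the exit of the peptide tunnel, MRPL17 was 4.20-fold lower, at 1675 with p53 on and 7037 with p53 off, and MRPL22 1.80-fold lower. MRPL45, which anchors the ribosome to the inner membrane, was higher, at 1693 with p53 on and 1398 with p53 off, a log2 ratio of 0.28. MRPL24 and MRPL47 had log2 ratios of -0.43 and -0.12. MRPL23 had -0.66 on its brightest probe set and 0.59 on a second one, whose p53 off signal was under the floor.

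Of the other large-subunit genes, MRPL34, the homologue of one of the smallest bacterial ribosomal proteins, was 4.55-fold lower at 734 with p53 on and 3338 with p53 off. MRPL36, another very small protein, was 2.57-fold lower at 4143 with p53 on and 10659.6 with p53 off. MRPL41, which has also been described as a pro-apoptotic mitochondrial protein, had 3536 with p53 on and 6884 with p53 off, 1.95-fold lower. Its 5 probe sets disagreed, with log2 ratios of -0.96 and -0.86 on the brighter ones and -0.39, 0.83 and 0.999 on the dimmer ones, the last a bound with p53 off under the floor. MRPS30, a large-subunit protein, was 2.83-fold lower at 1537 with p53 on and 4353 with p53 off, with -1.14 and -0.067 on its other probe sets. MRPL43, MRPL35, MRPL37 and MRPL21 were also at least 2-fold lower, at log2 ratios of -1.28, -1.17, -1.06 and -1.02. The other probe sets of MRPL43 gave -2.34 and 0.17, and those of MRPL35 gave -1.07 and 0.049.

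Near-equal or higher signals in the large subunit were those of MRPL32, MRPL57, MRPS18A, MRPL9, MRPL45 and MRPL39, with log2 ratios of 0.038, 0.054, 0.097, 0.27, 0.28 and 0.45, besides MRPL18 and MRPL33. MRPL39, a mitochondrion-specific protein, had 4714 with p53 on and 3443 with p53 off. The second probe set of MRPL9 was lower, at 1099 with p53 on and 1523 with p53 off, a log2 ratio of -0.47. MRPL57 was bright on both arrays, at 12967 with p53 on and 12492 with p53 off, but its 4 probe sets ran from -1.93 to 0.62. MRPL49, a mitochondrion-specific protein, was nearly equal on both arrays, at 5346 with p53 on and 5379 with p53 off.

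The remaining large-subunit genes were lower by smaller amounts. MRPL54 and MRPL28 had log2 ratios of -0.86 and -0.74, and MRPL52, MRPL1, MRPL51 and MRPL14 of -0.53, -0.33, -0.22 and -0.16. MRPL30 had 2797 with p53 on and 3557 with p53 off, and its 5 probe sets ran from -1.47 to 0.32. MRPL19 had 2314 with p53 on and 2502 with p53 off, a log2 ratio of -0.11, with 0.59 and 0.30 on probe sets that were under the floor on the p53 off array.

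In the small subunit, all 4 genes grouped here as body proteins, MRPS12, MRPS16, MRPS5 and MRPS17, were at least 1.5-fold lower. None of the 4 head proteins was, and the share over all measured genes was 25.9%. MRPS17 was 1.53-fold and MRPS7 1.49-fold lower, close to that limit on either side. The second probe set of MRPS16 gave -0.22. The other probe sets of MRPS5 gave -0.65 and, as bounds, -0.21 and 1.01. MRPS7, a head protein whose bacterial homologue starts assembly of that domain, had 2243 with p53 on and 3331 with p53 off, a log2 ratio of -0.57. MRPS9 and MRPS14 had -0.20 and -0.33. MRPS10 was the highest small-subunit gene, at 2381 with p53 on and 1612 with p53 off, a log2 ratio of 0.56, but its other probe sets gave -0.47 and -1.28.

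MRPS2, a protein with a bacterial homologue, was 4.80-fold lower at 477 with p53 on and 2290.1 with p53 off. MRPS11, on the platform, was 2.77-fold lower at 776 with p53 on and 2150.3 with p53 off, and MRPS34, a mitochondrion-specific protein, 2.46-fold lower at 495 with p53 on and 1216 with p53 off. These 3 genes each had 1 measured probe set. MRPS15, also on the platform, was among the brightest members at 14014 with p53 on and 12594 with p53 off, a log2 ratio of 0.15, with probe sets between -0.58 and 0.21.

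The paralogues derived from bacterial S18 differed. In the classes used here only MRPS18C was counted as having a bacterial homologue, and MRPS18A and MRPS18B as mitochondrion-specific. MRPS18B had 1716 with p53 on and 2912 with p53 off, and both of its probe sets were lower, at -0.76 and -1.71. MRPS18C had 4362 with p53 on and 6322 with p53 off, a log2 ratio of -0.54, with 0.45 on a dim second probe set. MRPS18A, which sits in the large subunit, had 1873 with p53 on and 1751 with p53 off, and its second probe set gave -0.29.

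MRPS22, a mitochondrion-specific protein mutated in inherited oxidative phosphorylation defects, showed little difference, with 3979 with p53 on and 4219 with p53 off. All 4 of its probe sets are marked _x_at, and their log2 ratios were -0.085, -0.69, -0.16 and 0.061. All 10 small-subunit genes counted as mitochondrion-specific, MRPS18B among them, were on the lower side, from -0.085 for MRPS22 to -1.30 for MRPS34. Of all members 65 of 75 were lower, and of all measured genes 6934 of 13915. At least 1.5-fold lower were 6 of the 10 (60%), against 54.7% of all members and 25.9% of all measured genes. MRPS25 was lower on each of its 3 probe sets, at -0.55, -0.58 and -0.24. MRPS31 had 2123 with p53 on and 2291 with p53 off on its brightest probe set, but 2272 with p53 on and 1519 with p53 off on another, a log2 ratio of 0.58. The other mitochondrion-specific ones were MRPS35, MRPS27, MRPS26, MRPS23 and MRPS33, at -0.93, -0.83, -0.78, -0.72 and -0.47. Of the genes with bacterial homologues not yet named, MRPS6, MRPS21 and MRPS28 had -0.79, -0.61 and -0.25.

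Several probe sets of 1 gene were the only repeat measurement. Of the 75 genes, 32 had more than 1 measured probe set. All measured probe sets were lower in 12 of them (37.5%), against 30.6% of all 6680 measured genes of that kind, and all were at least 1.5-fold lower in 4 (12.5%), against 10.4%. All were higher in 1, MRPL39 (3.13%), against 28.0%. Signs differed within 19 of the 32 (59.4%), against 41.4% of all such genes. The other 25 of the 41 members that were at least 1.5-fold lower had only 1 measured probe set. Probe sets of 1 member thus differed in sign at a larger share than those of genes in general, with no test of that difference.

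Bright and dim probe sets of the members differed in their counts. Of 132 measured probe sets of the members, 100 had a mean signal of at least 500, the target to which the arrays had been scaled, and 84 of those were lower. Of the 32 dimmer ones, 16 were lower and 16 higher. The same shares were not counted for the probe sets of all genes. With the brighter probe sets averaged per gene, all 7460 genes had a median log2 ratio of -0.18. At least 1.5-fold lower were 33.2% of them, and 52% of the members. The limit of 500 was chosen after the values were seen. With only the brighter probe sets, 17 members had more than 1 probe set. Of these, 6 (35.3%) were at least 1.5-fold lower on all, against 19.6% of all 2638 such genes. The 6 were MRPL2, MRPL35, MRPL41, MRPL43, MRPL50 and MRPS18B. All probe sets were lower in 8 of the 17 (47.1%), against 42.5%. Signs still differed in 9 of the 17 (52.9%), against 26.6% of such genes, among them MRPL42, MRPL57, MRPS10 and MRPS31.

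Affymetrix marks probe sets that can bind several transcripts with _s_at or _x_at. The brightest probe set was so marked in 44 members and unmarked in 31. The 31 unmarked ones had a median log2 ratio of -0.72, with 16 at least 1.5-fold lower, and 2, MRPL18 and MRPL33, at least 1.5-fold higher. The 44 marked ones had a median of -0.62, with 25 lower and none higher. Over all measured genes the medians were 0.04 for unmarked and -0.09 for marked probe sets. At least 1.5-fold lower were 24.3% of the unmarked and 29.1% of the marked ones. At least 1.5-fold higher were 26.7% and 24.4%.

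When all marked probe sets were dropped, 43 members kept a probe set and their median was -0.35. Beside the 31 genes this adds 12 whose brightest probe set was marked. In those 12 the marked probe set had a median of -0.65 and the unmarked one of 0.12, and the unmarked one carried between 0.73% and 44.5% of the mean signal of the marked one. MRPL42, for example, had 4819 with p53 on and 7481 with p53 off on the marked probe set, and 816 with p53 on and 455 with p53 off on the unmarked one. In MRPL50 both were lower, at log2 ratios of -0.61 and -1.65. Which of the probe sets follows the transcript was not tested.

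Ratios also varied with brightness. Split into 4 equal parts by mean signal, the dimmest part of the members ran from 555 to 1798, where 16 of 19 genes were at least 1.5-fold lower and the median was -1.30, against -0.27 for all 3716 measured genes in that range, of which 37.1% were at least 1.5-fold lower. In the middle parts the medians were -0.57 and -0.66, against -0.19 and -0.17. In the brightest part, from 4558 to 19033, the median was -0.13, against 0.0035, and 5 of 19 (26.3%) were at least 1.5-fold lower, against 18.6% of all genes there. After loess on mean signal the median of the members was -0.48 and 29 were at least 1.5-fold lower, against 22.5% of all genes under that setting.

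**Figure D3:**
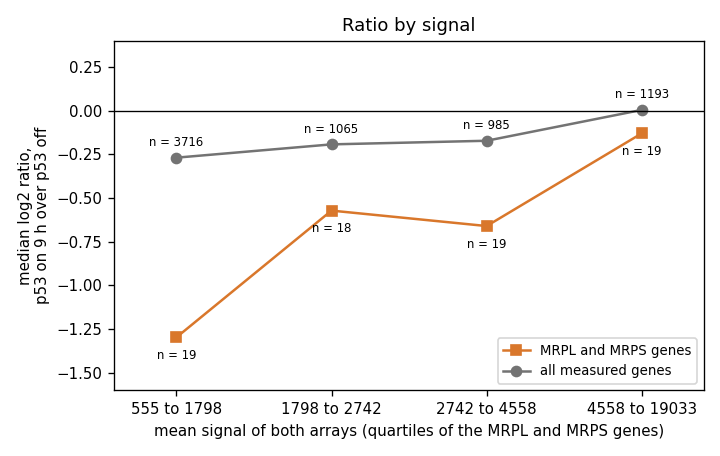
Median log2 ratio of p53 on 9 h over p53 off (y axis) by mean signal of both arrays in linear MAS5 units (x axis), for the mitochondrial ribosomal protein genes in 4 equal parts and for all measured genes in the same signal ranges; n is the number of genes. The members' line is under that of all genes in each range, by most at the dim end, where it is -1.30 against -0.27.

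The other genes of mitochondrial gene expression were examined as lists, chosen with earlier results of these data known, and their counts stand against the 25.9% of all measured genes in each direction. Of 4 measured mitoribosome proteins with other symbols, none was higher. GADD45GIP1 was 1.86-fold lower at 416 with p53 on and 774 with p53 off, PTCD3, at the entry of the messenger RNA channel, was 1.51-fold lower, and DAP3, a GTP-binding protein of the small subunit, had 7557 with p53 on and 8853 with p53 off, a log2 ratio of -0.23. Among assembly and ribosomal RNA factors, 14 of 29 were at least 1.5-fold lower and 1 higher, with a median of -0.58. METTL17, an assembly factor, was 2.69-fold lower at 1333 with p53 on and 3583 with p53 off, and RBFA, which matures the small subunit, 2.61-fold at 269 with p53 on and 702 with p53 off. NOA1, a GTPase of small-subunit assembly, was the one higher gene, 1.69-fold, and MPV17L2 was 2.24-fold lower.

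Of 13 measured translation factors 5 were at least 1.5-fold lower and 2 higher, and their median was -0.52, which was 0.084 with the highest ratio per gene and -0.21 over probe sets with a mean signal of at least 500. MTRFR, a rescue factor of the release factor family, was at least 4.20-fold lower, with 99.0 on the p53 on array, under the floor, and 472 on the p53 off array. MTRF1, another member of that family, was 2.66-fold lower. GUF1, the homologue of the bacterial back-translocase, was 3.11-fold higher at 2919 with p53 on and 939.7 with p53 off. TUFM, the elongation factor that delivers transfer RNA, was 1.52-fold lower at 7679 with p53 on and 11667 with p53 off.

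Of 15 mitochondrial aminoacyl-tRNA synthetases 8 were at least 1.5-fold lower and none higher. Their median was -0.60, and the lowest were NARS2, YARS2 and AARS2 at -1.10, -0.90 and -0.89. Of 12 genes that transcribe and copy mitochondrial DNA 5 were lower and 1 higher, and their median was -0.17, which was -0.58 with the mean of measured probe sets and -0.50 over probe sets with a mean signal of at least 500. POLRMT, the mitochondrial RNA polymerase, was 3.79-fold lower at 412 with p53 on and 1561 with p53 off, and TFB2M, its initiation partner, 1.87-fold. LONP1, a matrix protease, was 1.82-fold lower. TEFM, the elongation factor, was 1.62-fold higher.

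Of 8 measured nuclear regulators of mitochondrial genes, 5 were at least 1.5-fold lower and 1 higher. PPRC1, a coactivator of the PGC-1 family, had 283 with p53 on and 1188 with p53 off, 4.20-fold lower. MYC was 3.27-fold lower at 1649 with p53 on and 5388 with p53 off. NRF1 was 1.92-fold lower at 277 with p53 on and 533 with p53 off, and GABPA 1.70-fold at 282 with p53 on and 479.98 with p53 off. YY1 had 6918 with p53 on and 7631 with p53 off, a log2 ratio of -0.14.

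The nuclear subunits of the respiratory chain and ATP synthase had a median of 0.02, near that of all genes. Apart from the SDH genes, they belong to complexes that also hold mitochondrially made proteins. Of 71 genes 11 were at least 1.5-fold lower and 9 higher. The largest differences were those of NDUFS3, UQCRC1 and NDUFV1, 2.44-fold, 2.25-fold and 2.19-fold lower. Cytosolic ribosomal protein genes lay on the other side, with 42 of 60 at least 1.5-fold higher, none lower and a median of 0.79, which was 0.02 after quantile normalization and -0.13 with spike-in scaling. RPL41, RPL37A and RPL27A had the largest ratios, 2.35-fold, 2.28-fold and 2.19-fold higher. The difference between these lists and the mitochondrial ribosomal protein genes has no test, and the lists were not matched for signal. Most genes of both lists were brighter than the median member, at 2123 with p53 on and 3338 with p53 off. In the brightest part of the members, from 4558 to 19033, the median was -0.13. The part of signal in this difference was not tested.

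**Figure D4:**
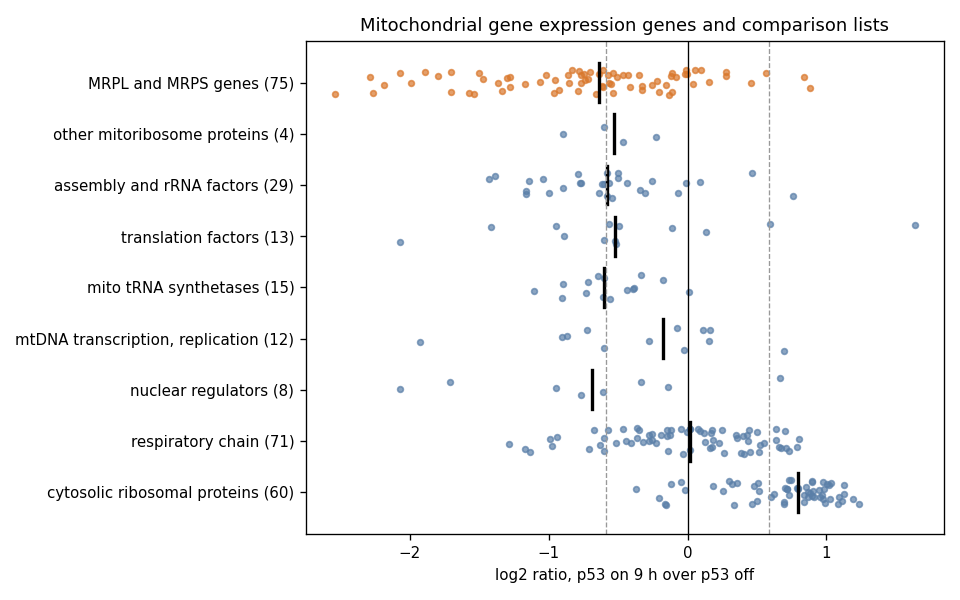
Log2 ratio of p53 on 9 h over p53 off (x axis) for each measured gene, in rows by list with the number of genes in brackets. Dots are genes, black bars medians and dashed lines 1.5-fold. The medians are -0.63 for the mitochondrial ribosomal protein genes, 0.02 for the respiratory chain and 0.79 for cytosolic ribosomal proteins. The lists are not matched for signal.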

How the data were processed

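Per the submitters' processing notes the values were made with MAS5, which gives 1 linear signal intensity per probe set. No software version, background setting or detection call was found in the labels. The deposited intensities hold 54675 probe sets, 62 of them controls. Their mean without the lowest and highest 2% was 499.9 on both arrays, as a single scaling factor per array gives, and no further normalization was added.

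Names came from GEO's platform annotation, updated through Entrez identifiers to RefSeq (GRCh38.p14). One symbol each was given to 41091 probe sets, several to 1801 and none in this annotation to 11721. RefSeq held the identifier of 41037 among the first. Only those with 1 symbol were used. A gene was measured where its brightest probe set reached the floor of 112.4 (the 50th percentile of all signals) on at least 1 array. A ratio with 1 signal under the floor is a bound.

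No test was possible with 1 array per condition. The number of arrays limits the precision, and whether the cultures were separate is not given. Genes were counted by size, at 1.5-fold and 2-fold. The members and lists were chosen with earlier results of these data known. Named are the 12 lowest and 8 highest members, members with probe sets of both signs or at least 3 measured ones, a fixed set with known roles, and the 3 largest differences per list; others were named after their values were seen. Subunit, class and site are textbook assignments. The gene that encodes p53 is not reported here, and the names p53 on and p53 off follow the labels.

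The procedure was run on a copy of the p53 off array in which chosen genes had been multiplied by known factors, without noise. Reading these factors back checks the arithmetic and not how reliable the ratios between the 2 arrays are. Alternatives tried were a floor at percentile 40 or 60, pseudocounts of 1 and of the floor, centring, quantile normalization, loess (span 0.3), spike-in scaling, other choices of probe set, and symbols left as annotated. Python 3.11.15, numpy 2.4.6, pandas 2.3.3, statsmodels 0.14.6 and matplotlib 3.10.9 were used.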

Additional observations from a re-analysis of the deposited data

Results flagged for a closer look

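The control probe sets, outside every gene comparison above, had unlike values on the arrays. Beta-actin had a 3' over 5' ratio of 7.29 on the p53 on array and 1.37 on the p53 off array. GAPDH had 1.77 on the p53 on array and 0.97 on the p53 off array. Over 18 probe sets of the added spike-in RNAs, the p53 on array was brighter by a median factor of 1.89 (1.47 to 2.59). These values were picked out because they lie outside the main measurement.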

How the results depend on the processing

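The median log2 ratio of the mitochondrial ribosomal protein genes was under 0, and under that of all measured genes, in each of the 14 alternatives. It ran from -0.74 with the lowest ratio per gene to -0.33 with the highest, apart from -1.55 with spike-in scaling. Spike-in scaling left 71 genes at least 1.5-fold lower, 62 of them by at least 2-fold, and 0 at least 1.5-fold higher, while 58.7% of all genes were then at least 1.5-fold lower. Without marked (_s_at and _x_at) probe sets, which leaves 43 members, 17 were at least 1.5-fold lower, 9 of them by at least 2-fold, and 5 at least 1.5-fold higher, against 24.1% of all genes lower and 26.5% higher. At least 1.5-fold higher were 4 genes after loess, against 25.8% of all genes, and 8 with the highest ratio per gene, against 31.7%. Other alternatives kept these counts within 1.5 times.

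Spike-in scaling left 0 members above 0. It turned MRPL33 to -0.040, MRPL18 to -0.084, MRPS10 to -0.36, MRPL39 to -0.47, MRPL45 and MRPL9 to -0.64, and the median of cytosolic ribosomal proteins to -0.13. Without marked probe sets, and likewise with the highest ratio per gene, MRPL43 was 0.17, MRPL35 0.049, MRPS5 1.01, MRPL23 0.59 and MRPL42 0.84. MRPL41 was 0.999 with the highest ratio per gene. The values of MRPS5, MRPL23 and MRPL41 are bounds, with p53 off under the floor. The cause was not tested. No paired analysis was possible because each condition has 1 array. Signal over background could not be assessed, because no detection calls were used.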

Other observations

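Some genes for mitochondrial ribosomal proteins lie head to head with another gene, with starts at most 1000 bases apart in the RefSeq table. A protein-coding neighbour of that kind was found for 18 of the 67 members with an entry. One pair joins a gene of each subunit, MRPS11 and MRPL46, with starts 320 bases apart, and both were lower, at log2 ratios of -1.47 and -1.33. In the 15 pairs with another measured partner, 5 partners were at least 1.5-fold lower, 1 was higher and 9 lay between, with a median of -0.34. The lower share is near the 25.9% of all measured genes. The higher share is under the 25.9% of all measured genes in that direction, and the median of all measured genes was 0.0035.

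The members of a pair could differ widely. MRPS12 was at -2.28, while SARS2, the mitochondrial seryl-tRNA synthetase gene 181 bases away, was at -0.34, with dim signals of 224 with p53 on and 283 with p53 off. MRPL49 was at -0.01, while FAU, a cytosolic ribosomal protein gene 49 bases away, was at 0.47. MRPL51 was at -0.22, while NCAPD2, a condensin subunit gene of dividing cells, was at -1.39, at 1014 with p53 on and 2662 with p53 off. MRPS27 and PTCD2, a gene for a mitochondrial RNA-binding protein, were both lower, at -0.83 and -1.46.

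Probe sets that name a second gene were left out of the comparison. The one for MRPL53 and CCDC142 had 2184 with p53 on and 2629 with p53 off, and the one for MRPS24 and a readthrough gene 7203 with p53 on and 9089 with p53 off. Their log2 ratios were -0.27 and -0.34. A probe set that names MRPL51 and SPTLC1 had 669.8 with p53 on and 1492 with p53 off, 2.23-fold lower, against a log2 ratio of -0.22 on the probe set of MRPL51 alone.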
